A study of Mus musculus with 6 samples.

Results

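C-type lectin receptors of myeloid cells were followed through 9 genes in cultured mouse microglia: Clec7a, Clec4n, Clec4d, Clec4e, Clec5a, Clec12a, Clec4a1, Clec4a2 and Clec4a3. The genes were chosen by the difference between the conditions in these libraries, with that contrast already known, and Clec4a1 had the largest fall of the genes then named. The differences given for these receptors therefore describe the libraries and are not independent tests. The rule took every row of the count and FPKM tables that carried 1 of these symbols, and all 9 were found among the 41079 genes listed. All 9 passed the filter on low counts, which kept 14618 genes.

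RNA-seq compared 3 libraries of primary microglia in serum-free DMEM/F12, the control condition, with 3 libraries under the optimized condition. Both conditions used brain microglia of C57Bl/6N mice aged 1 to 3 days, shaken off mixed glial cultures that pool several brains of both sexes. The mixed glia had been kept for weeks in medium with serum, with L-929 conditioned medium added, and the harvested microglia met serum again while adhering, before the test media were given. The optimized medium held human TGF-β1, IL-34 and CX3CL1 at 100 ng/mL each, and the study's description adds cholesterol, insulin-transferrin-selenium and a collagen IV coating. The effects of these additions cannot be told apart, since they were given together. The question was how receptor expression differed between the combined medium and its serum-free base.

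C-type lectin receptors are membrane proteins of macrophages, dendritic cells and neutrophils with an extracellular lectin-like domain, through which many of them bind sugars or lipids of microbes and products of dying cells. The activating receptors recruit the kinase Syk, either through a tyrosine motif in their own tail or through the adaptors Fcer1g, Tyrobp or Hcst, and Syk signals through protein kinase C delta to a complex of Card9, Bcl10 and Malt1 that turns on NF-κB and cytokine genes. The inhibitory receptors carry a motif that recruits the phosphatases Ptpn6 and Ptpn11. In brain, Clec7a is widely used as a marker of disease-associated microglia.

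All receptor genes lay on mouse chromosome 6 (GRCm39, GENCODE M39) and were annotated as protein-coding. A cluster of 371 kb at chr6:122896122-123266829 held Clec4a1 (chr6:122896122-122911578, plus strand), Clec4a3 (chr6:122929380-122948807, plus), Clec4a2 (chr6:123083387-123120958, plus), Clec4n (chr6:123206802-123223980, plus), Clec4d (chr6:123239070-123252230, plus) and Clec4e (chr6:123258748-123266829, minus). A stretch of 130 kb held Clec12a (chr6:129319654-129342266, plus) and Clec7a (chr6:129438554-129449742, minus). Clec5a stood alone at chr6:40551234-40562773 on the minus strand.

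Promoter sequences were read because most of the receptors were lower together. RefSeq windows of 250 bases before a start to 50 after it (table of GRCm38.p6) were found for 8 of the 9 genes, all but Clec4n, and each matched GRCm39 at 1 place, which gave the coordinates below. The RefSeq and GENCODE starts differ for some genes: the windows of Clec4a1, Clec12a and Clec4a2 lie inside their GENCODE genes, with the RefSeq start 2685, 7553 and 16262 bases after the GENCODE gene start. Of the 250 bases before the RefSeq start, 250 of Clec12a, 68 of Clec4a2, 59 of Clec4a1 and 34 of Clec5a are in GENCODE exons of the same gene, as are 94 and 131 in the windows of Clec4a3, and 0 for Clec4d, Clec4e and Clec7a. The letters GAGGAA, the core of the site bound by the myeloid factor PU.1, occurred on either strand of the 250 bases before a RefSeq start in 7 of the 8 genes, the exception being Clec4a2. The same letters stood in 25.9% of the 27025 genes of the table. This short core was chosen after the sequences had been read. Clec4d also has matches in the 50 bases after its start, and these are not shown. For each gene, the nearest match before the RefSeq start is shown with 10 bases on either side. It is read 5′ to 3′ on the strand that spells GAGGAA, with the core in capitals.
Clec7a: acaggatctaGAGGAAaaaagggaaa
Clec4d: ctttagaacaGAGGAAgaagttggtg
Clec4e: ttgtgcaagaGAGGAAattctgactt
Clec4a1: gaacagggaaGAGGAAgaaaagtggc
Clec4a3: gaatgaaaaaGAGGAAccagggcatt
Clec12a: aagattgaaaGAGGAAcacttttctt
Clec5a: ggggcaaaaaGAGGAAgggaacttct
The stretch shown for Clec7a is chr6:129449823-129449848 and that of Clec4d chr6:123238816-123238841, both on the minus strand. That of Clec4e is chr6:123266871-123266896 on the minus strand. For Clec4a1 it is chr6:122898610-122898635 and for Clec4a3 chr6:122929543-122929568, both minus, and for Clec12a it is chr6:129327150-129327175, also minus. That of Clec5a is chr6:40562779-40562804 on the plus strand. The cores lay 47 to 240 bases before the RefSeq starts, and those of Clec4a1, Clec4a3 and Clec12a are inside the GENCODE genes.

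The longer motifs were rarer. GAGGAAGT, a fuller PU.1-type site that contains the core, was in none of the 8 genes' 300-base windows, against 3.69% of all genes in the table. TGACTCA, the AP-1 site, was in the Clec4a2 window only, against 5.95% of genes. GGGACTTTC, an NF-κB site, was in none, against 0.403%, and CAGACA, a SMAD-type element, was in Clec4a2 and Clec12a, against 23.6%. Both strands were searched for each motif. A match or its absence in these windows is a description of the letters and says nothing of binding.

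The windows of Clec4a1 and Clec4a3 shared a run of 17 bases, cctggTTCCTCtttttc, in which the capitals mark the core read on the other strand. It was the longest run that windows of different receptor genes had in common, and it began 222 bases before the RefSeq start of Clec4a1 and 55 before that of Clec4a3. The 250 bases before the starts of Clec7a and Clec4e, which overlap no annotated exon of their genes, are given whole as the windows of the most abundant receptor and of a cluster gene with a large difference. They are chr6:129449743-129449992 for Clec7a and chr6:123266831-123267080 for Clec4e, both on the minus strand, with the core in capitals on whichever strand it falls.
Clec7a: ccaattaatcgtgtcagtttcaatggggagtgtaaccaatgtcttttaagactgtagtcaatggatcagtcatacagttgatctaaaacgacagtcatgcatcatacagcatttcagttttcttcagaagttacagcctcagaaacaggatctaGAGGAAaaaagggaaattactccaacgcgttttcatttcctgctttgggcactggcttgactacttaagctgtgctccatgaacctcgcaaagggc
Clec4e: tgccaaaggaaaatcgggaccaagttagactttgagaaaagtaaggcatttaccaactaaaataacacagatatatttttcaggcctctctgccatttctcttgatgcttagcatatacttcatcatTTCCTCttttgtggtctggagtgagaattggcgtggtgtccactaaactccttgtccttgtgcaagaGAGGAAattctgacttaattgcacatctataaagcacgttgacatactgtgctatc

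In both conditions Clec7a was the most abundant receptor transcript and Clec4d the next, and Clec4a1, Clec4a2 and Clec4a3 filled the bottom of the order in the optimized libraries, where Clec4a2 had been last in control already. Levels between genes are compared as FPKM, the fragment count corrected for gene length and library size. In control, the mean order was Clec7a, Clec4d, Clec12a, Clec4e, Clec4n, Clec4a3, Clec4a1, Clec5a and Clec4a2. The ranges of Clec4n and Clec4a3 overlapped, as did those of Clec4a3 and Clec4a1, and all other neighbours in that order were apart. In the optimized libraries the order was Clec7a, Clec4d, Clec12a, Clec5a, Clec4n, Clec4e, Clec4a3, Clec4a2 and Clec4a1, and only Clec5a and Clec4n overlapped. Among all genes tested, the mean level of Clec4a1 stood at percentile 85.9 in control and 9.59 in optimized libraries, while Clec7a stayed near the top, at 99.4 and 98.5.

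**Figure D1:**
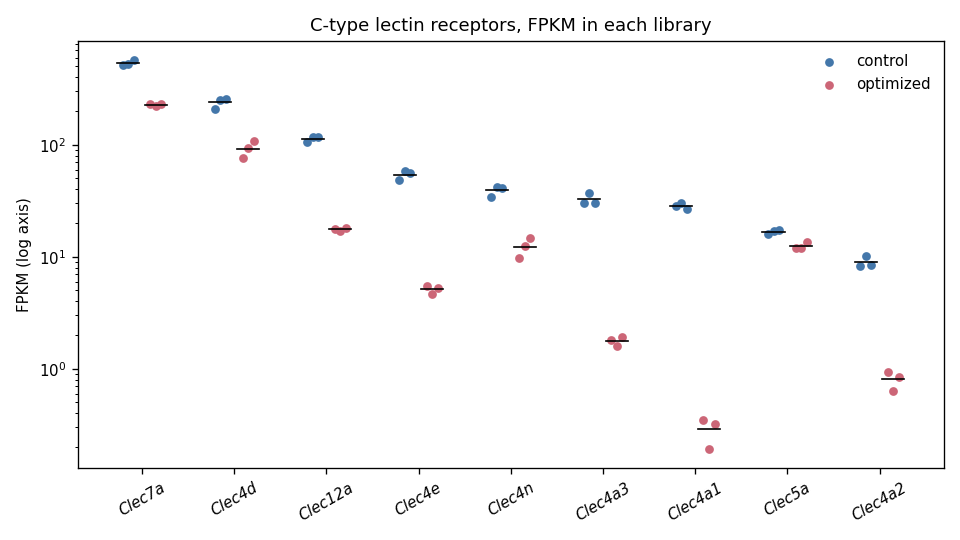
FPKM of the 9 receptor genes in each library on a log axis, with control in blue, optimized in red and the mean of 3 libraries as a black line. Every optimized point lies below every control point of its gene, with the widest gap for Clec4a1 (28.5 against 0.286) and the narrowest for Clec5a (16.7 against 12.5).

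Of the 9 genes, 8 were lower in optimized than in control libraries at an adjusted p under 0.05 (edgeR quasi-likelihood test) and 0 were higher, with 8 and 0 also by DESeq2. The remaining gene, Clec5a, had an unadjusted p of 0.017 and an adjusted p of 0.055 (edgeR). At the adjusted threshold, 15.2% of all tested genes were called lower and 14.7% higher. Every optimized library was below every control library for 9 of 9 receptors and for 22.5% of all genes. The median log2 fold change was -2.54 over the receptors and 0.0079 over all genes, and 8 of the 9 receptors were below -1, as were 5.53% of all genes. These counts follow from how the genes were chosen. In bulk RNA, fewer cells of a type and less RNA per cell cannot be told apart.

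**Figure D2:**
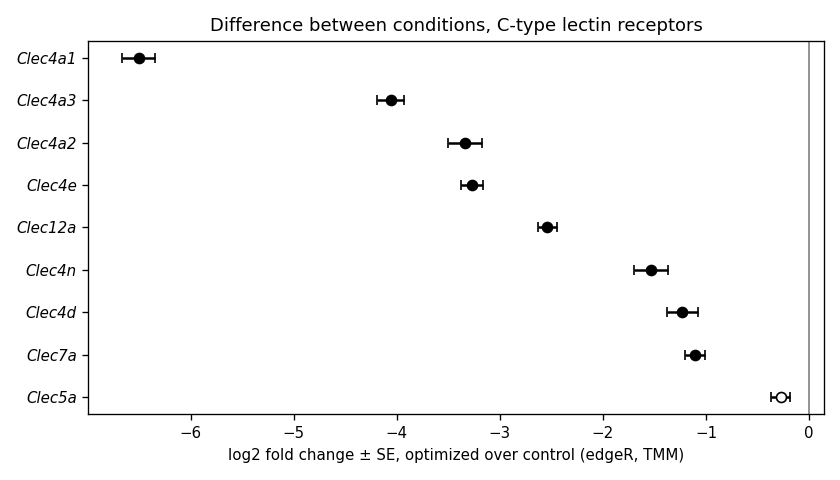
Log2 fold change of each receptor gene, optimized over control, from TMM-scaled counts, with bars of 1 SE. Filled points passed an adjusted p of 0.05 and the open point, Clec5a, did not; values run from -6.50 for Clec4a1 to -0.28 for Clec5a.

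Clec7a encodes dectin-1, the receptor for fungal β-glucan, which engages Syk through its own tail. It was at 514, 531 and 570 FPKM in the control libraries and at 231, 222 and 230 in the optimized ones. The optimized libraries were close to each other and all well below control. The log2 fold change from TMM-scaled counts was -1.11 ± 0.10 (SE, n = 3 against 3). In FPKM, which are scaled otherwise, the optimized mean was 42.3% of the control mean.

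Clec4n encodes dectin-2, which binds fungal mannans and signals through Fcer1g. It had 34.1, 42.1 and 41.0 FPKM in control and 9.65, 12.3 and 14.8 in optimized libraries. The groups did not overlap, and the optimized libraries differed among themselves by more than those of Clec7a did. The log2 fold change was -1.53 ± 0.16.

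Clec4d and Clec4e are neighbours in opposite orientation and encode MCL and Mincle, partners in the recognition of mycobacterial glycolipid through Fcer1g. Clec4d was at 208, 249 and 257 FPKM in control and at 76.1, 93.6 and 107 in optimized libraries, a log2 fold change of -1.23 ± 0.15. Clec4e was at 48.1, 58.0 and 56.1 FPKM in control and at 5.42, 4.67 and 5.24 in optimized libraries, -3.27 ± 0.11. Both were lower in every optimized library, Clec4e by far more. Within a library, the FPKM of Clec4d over that of Clec4e was 4.41 ± 0.16 (SD, n = 3) in control and 18.2 ± 3.60 in optimized cultures. The lowest optimized ratio, 14.0, was above the highest control ratio, 4.59. The ratio of Clec4n to Clec4d differed less, at 0.164 ± 0.0048 in control and 0.132 ± 0.0058 in optimized libraries. Its groups were apart too, with a highest optimized ratio of 0.138 and a lowest control ratio of 0.159.

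Clec5a encodes MDL-1, an activating receptor that pairs with Tyrobp and Hcst. It was at 15.8, 16.9 and 17.4 FPKM in control and at 11.9, 12.1 and 13.6 in optimized libraries. The groups were apart by FPKM, but the log2 fold change from TMM-scaled counts was -0.28 ± 0.10 and it was the only receptor that missed the threshold, with an adjusted p of 0.055 by edgeR. It was past the threshold in other settings, among them when counts were scaled by library size alone (-0.41, adjusted p = 0.0077, edgeR) and in the FPKM models. Over all settings the log2 value ran from -0.41 to -0.22, and the highest adjusted p, 0.20, came without control replicate 3.

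Clec12a encodes MICL, an inhibitory receptor that binds uric acid crystals. It had 106, 118 and 116 FPKM in control and 17.8, 17.1 and 18.2 in optimized libraries, which differed little within each condition. The log2 fold change was -2.54 ± 0.09.

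The 3 genes named Clec4a belong to the family of dendritic cell immunoreceptors, of which the product of Clec4a2 carries an inhibitory motif. Clec4a1 was counted 974, 1118 and 1169 times in control and 12, 8 and 11 times in optimized libraries. In FPKM these were 28.3, 30.4 and 26.7 against 0.348, 0.192 and 0.319. Every optimized count was low, and the exact Poisson intervals at 95%, which cover counting error only, reached from 3.45 for the lowest bound to 21.0 for the highest. The log2 fold change was -6.50 ± 0.16, or 90.8-fold lower, the sixth lowest of the 14618 genes tested.

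Clec4a3 was at 30.4, 37.2 and 29.98 FPKM in control and at 1.80, 1.60 and 1.91 in optimized libraries, a log2 fold change of -4.06 ± 0.13. Clec4a2 was at 8.24, 10.1 and 8.42 FPKM in control and at 0.941, 0.628 and 0.851 in optimized libraries, -3.34 ± 0.16. Both were far below control in all 3 optimized libraries. They fell by unequal amounts, since the ratio of Clec4a1 to Clec4a3 was 0.880 ± 0.057 in control and 0.160 ± 0.037 in optimized libraries and that of Clec4a3 to Clec4a2 went from 3.64 ± 0.072 to 2.23 ± 0.32. Reads could be shared with a paralog only for Clec4a2 to any extent: 6.61% of its transcripts' 50-base words and 1.95% of its 100-base words were also in other genes, mostly Clec4a4. For the other receptors at most 2.45% of 50-base words and 0% of 100-base words were shared. Exons of Clec4a2 shared 16 bases with an antisense RNA, and those of Clec5a shared 44 bases with the olfactory receptor gene Or9a4 on the opposite strand; the strand setting of the counting is not given in the sources used here.

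The receptor pool as a whole was smaller and held relatively more Clec7a. The summed FPKM of the 9 genes was 993, 1092 and 1122 in control and 355, 364 and 392 in optimized libraries. Clec7a made up 50.4 ± 1.63% of it in control and 61.5 ± 3.26% in optimized libraries, while Clec12a went from 10.6 ± 0.23% to 4.79 ± 0.20% and Clec4e from 5.05 ± 0.23% to 1.38 ± 0.13%. Clec5a, which differed least between conditions, went from 1.56 ± 0.025% to 3.38 ± 0.081%. The share of Clec4d, 22.2 ± 1.10% and 24.8 ± 3.05%, overlapped between the conditions.

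**Figure D3:**
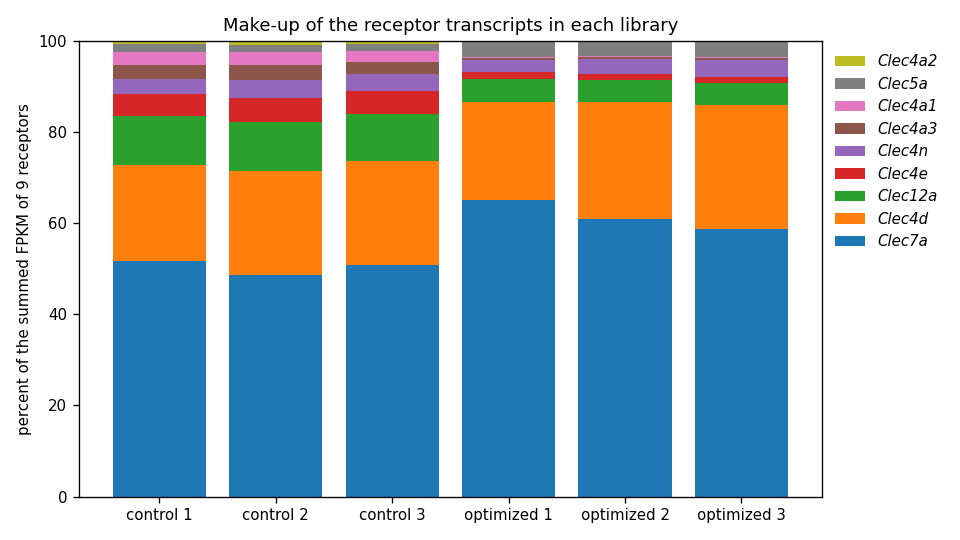
Share of each receptor gene in the summed FPKM of the 9 genes, as stacked bars for each library. Clec7a and Clec4d fill most of every bar, and the Clec4a1, Clec4a2 and Clec4a3 segments visible in control almost vanish in the optimized libraries.

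The adaptors and the signalling genes that act with the receptors were measured next. Of 11 adaptor and activating signal genes, all tested, 5 were lower, 1 was higher and 5 did not pass, with a median log2 fold change of -0.00034. Fcer1g, the adaptor of dectin-2, MCL and Mincle, was at 962 ± 69.0 FPKM in control and 870 ± 191 in optimized libraries, and Tyrobp at 1128 ± 183 and 1432 ± 494. Neither passed the test (edgeR adjusted p of 0.999 and 0.18), and their optimized libraries overlapped control. Hcst and Card9 overlapped too. Vav3, a guanine nucleotide exchange factor, had the largest difference, -2.08 ± 0.13. Syk was lower by a log2 fold change of -0.82 ± 0.08 (adjusted p = 5.65e-05, edgeR), from 25.1 ± 1.85 to 12.9 ± 1.23 FPKM. Plcg2, a phospholipase that acts after Syk, was higher, by 0.75 ± 0.08. Prkcd, Bcl10 and Malt1 were lower by smaller amounts, -0.57, -0.54 and -0.50. The number of higher genes was 1 with all libraries and 4 without optimized replicate 1.

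Src family kinases, which phosphorylate the receptors' tyrosine motifs, differed in direction. Src (-1.66 ± 0.10) and Lyn (-0.25 ± 0.08) were lower, and Fgr was higher by 1.45 ± 0.19. Among the phosphatases of the inhibitory receptors, Ptpn6 (-0.48 ± 0.10) and Ptpn11 (-0.30 ± 0.10) were lower and the lipid phosphatase Inpp5d was higher by 0.97 ± 0.09. Of the cytokine and enzyme genes that the Card9 route can induce, 6 of 10 were tested. Il1b (-3.33 ± 0.15), Cxcl2 (-3.22 ± 0.20) and Tnf (-1.30 ± 0.08) were lower. Il6 was higher by 2.23 ± 0.34 on few counts, 6, 7 and 9 without the additions and 30, 29 and 32 with them, and Cxcl1 and Ptgs2 did not pass. Lgals9, whose product is a reported dectin-1 ligand, did not pass, at a log2 fold change of 0.22. Sap130, at -0.07, did not pass either, and no ligand of Mincle was measured here. Spi1, which encodes PU.1, was lower by -0.56 ± 0.14 (adjusted p = 0.014, edgeR), and Cebpb, at -0.24 ± 0.15, did not pass.

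**Figure D4:**
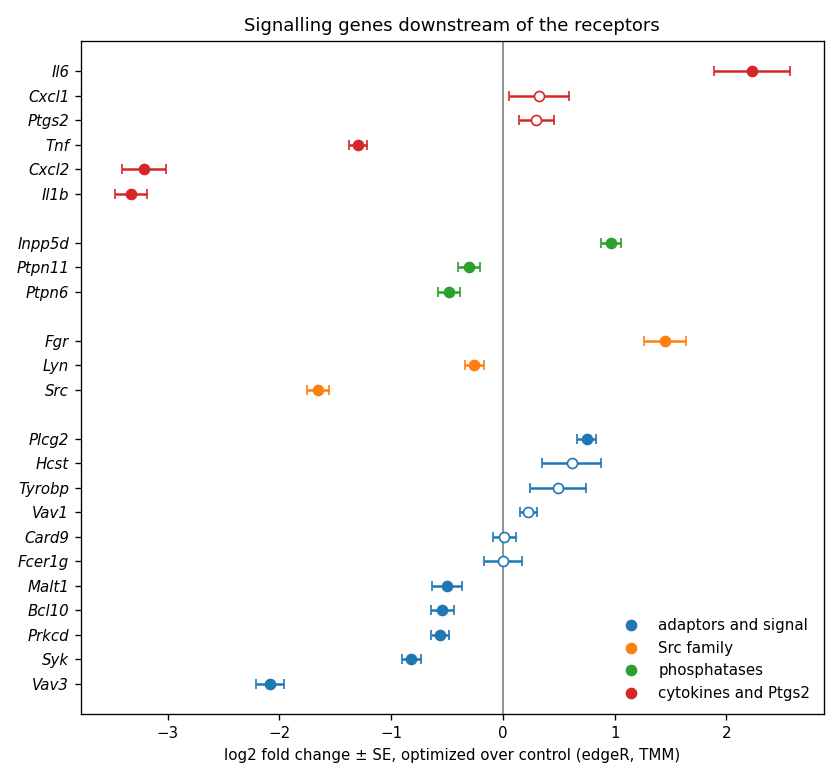
Log2 fold change, optimized over control, with bars of 1 SE, for genes that act with or after the receptors. Filled points passed an adjusted p of 0.05 (edgeR). The adaptors Fcer1g and Tyrobp are open points near 0 and at 0.49, while Vav3, Src, Il1b and Cxcl2 lie well below 0.

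Of 36 other C-type lectin genes, 17 had enough counts to be tested, and 12 were lower, 3 were higher and 2 did not pass, with a median of -1.16. The largest differences were Clec4b1 at -4.45 ± 0.78, Mrc2 at 4.19 ± 0.18 and Clec10a at -3.63 ± 0.73. Clec4b1 lies inside the Clec4 cluster and was counted 14, 27 and 17 times in control and 0, 2 and 0 times in optimized libraries, and Clec10a was at 24, 35 and 16 against 4, 0 and 1, so both rest on few counts. The control libraries held 43, 27 and 35 counts of Mrc2, the collagen-binding relative of the mannose receptor, while 573, 567 and 544 were found under optimized conditions. Olr1 and Colec12, scavenger receptors for oxidized lipoprotein, were the other genes that were higher, by 2.28 ± 0.16 and 1.01 ± 0.09. The mannose receptor Mrc1 was lower by -2.40 ± 0.10. The lectin genes outside the 9 receptors thus included some that were higher.

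Position was compared next. Of the 3 other listed genes within the Clec4 cluster only Clec4b1 was tested, and Clec4a4, at 19, 12 and 12 counts in control and 0 in each optimized library, was below the filter. Of the 20 genes listed next to the cluster, 10 on each side, 7 were tested, of which 1 was lower (C3ar1, -0.52), 1 was higher (Slc2a3, 0.97) and 5 did not pass. Around Clec12a and Clec7a, 2 of the 4 genes between them were tested and 1, Clec1b, was lower (-1.68). Of the 20 next to that stretch, 7 were tested, 5 were lower and 1 was higher. The lower ones included the lectin genes Clec2d (-2.98) and Cd69 (-2.86) and the lncRNA gene Gm45969 (-1.19), which overlaps Olr1 on the opposite strand, and the higher one was Olr1.

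Clec7a was read beside 11 genes commonly listed with it in disease-associated microglia. Of these 7 were higher, 3 were lower and 1, Cst7, did not pass, with a median of 0.73. Csf1, the growth factor, was higher by 2.21 ± 0.09 and Spp1, osteopontin, by 1.74 ± 0.15, while the chemokine Ccl6 was lower by -2.22 ± 0.17. Clec7a, at -1.11, thus went with the smaller number, beside Ccl6, Lpl (-1.55) and Itgax (-0.59).

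The genes whose profile over the 6 libraries was most like that of Clec4a1, by the root mean square difference of centred log2 CPM among 13196 genes, were Adgre4 (0.40), Fpr2 (0.58), Ccr3 (0.76), Ccl5 (0.83) and Slamf8 (0.87). Adgre4, an adhesion receptor of macrophages, had 86, 108 and 110 counts in control and 0 in each optimized library. The formyl peptide receptor gene Fpr2 had 245, 280 and 335 against 2, 5 and 5. The next receptor in this order was Clec4a3 at rank 11, followed by Clec4a2 at 26 and Clec4e at 28, and Clec5a was at 2952. This measure takes in the size of the difference between conditions, so it collects genes that were nearly lost.

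The cell type label was checked against markers. Of 12 microglia markers, 8 were higher and 2 lower in the optimized libraries, and their summed level was 9586 to 10352 CPM in control and 15321 to 19932 in optimized libraries. The 7 border macrophage markers summed to 932 to 1033 CPM in control and 471 to 628 in optimized libraries, with 2 lower, 2 higher, 1 not called and 2 below the filter. The part of this difference in that of the receptors was not tested. Dendritic cell markers, of which Flt3, Ccr7 and Cd209a were at 0, summed to at most 8.61 CPM, and lymphocyte markers to at most 0.28. The 8 neutrophil markers summed to at most 0.48 CPM in control and to 1.79 to 74.4 in optimized libraries. The highest sum came from 1534 counts of Ltf in optimized replicate 1, and Ly6g, S100a9, Mpo and Elane were at 0 in every library. Only 1 gene of this list was tested, and it was called higher, with a log2 fold change of 3.59. Monocyte markers summed to at most 4.16 CPM, with Chil3 at 0. Astrocyte markers summed to 33.3 to 36.2 CPM in control and 22.1 to 25.7 in optimized libraries, with 1 of 6, Aldh1l1, called lower (-1.83). Oligodendrocyte markers summed to 135 to 151 CPM in control and 164 to 201 in optimized libraries, and neuronal markers to 3.07 to 4.72 and 5.29 to 6.33, with 1 gene called higher in each list. Fibroblast markers summed to 34.5 to 48.7 CPM in control and 31.0 to 151 in optimized libraries, the highest in optimized replicate 3. The part of these markers in the receptor differences was not tested. Without optimized replicate 1, Clec4a1 was at -6.65 and all 9 receptors were still lower.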

How the data were processed

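Paired-end RNA-seq covered 3 control and 3 optimized microglia cultures. Per the labels and the paper's methods, HISAT2 (mm39) and featureCounts were used, and the authors deposited unnormalized counts together with FPKM for 41079 genes. Versions, annotation and strand setting are not given in the sources used here. Samples and columns were grouped by their labels. Total counts were 20628148 to 27261839 per library. The study calls the libraries biological replicates.

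Receptors and gene lists were chosen with earlier results of these data known. Genes passing filterByExpr (14618) were TMM-scaled and tested by edgeR 4.0.16 (quasi-likelihood, R 4.3.3). P-values were adjusted by Benjamini-Hochberg, and calls were made under 0.05. The SE was the log2 fold change divided by the square root of F. The steps were tested on simulated data. FPKM served for levels between genes. The text names all receptors, every gene of a list of up to 4, the 3 largest called differences of longer lists and the 5 profiles nearest Clec4a1. Other genes were named after their values were seen. A gene of the lists is not reported here. Alternatives were DESeq2 1.42.0, RLE factors, library size alone, leaving the filter out, at least 10 counts in every library, a replicate block, leaving out each library, a threshold of 0.01 and limma 3.58.1 on FPKM. The limma pseudocounts were 1 and 0.1 on the log2 scale, once restricted to a mean FPKM of 1 or more. Coordinates are GENCODE M39 and promoter sequences RefSeq. Protein sequences were not used here.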

Additional observations from a re-analysis of the deposited data

How the results depend on the processing

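The 9 receptors were lower under every setting that tested them, and no result reversed. The median log2 fold change of the receptors was -2.67 with library size alone, -2.46 with limma on log2(FPKM + 1), with or without a mean FPKM of at least 1, and -2.67 with limma on log2(FPKM + 0.1). It was -2.03 with at least 10 counts in every library, where Clec4a1 drops out, and -2.60 to -2.49 when each library was left out. Library size alone moved the median of all genes by -0.13, and 32.3% of its calls were higher against 49.1% with TMM; with limma this share was 31.1%, 31.3% and 28.4%. Clec5a was called with library size alone (-0.41), limma (-0.39 to -0.41) and the replicate block (-0.28, adjusted p = 0.022, edgeR). Higher adaptor and signal genes numbered 2 with RLE factors, DESeq2, at least 10 counts in every library and the replicate block, and 1 to 4 when each library was left out. Lower genes among the other C-type lectins numbered 7 with limma at a mean FPKM of at least 1, where fewer genes are tested. Same-numbered libraries of the conditions deviated together with correlations of 0.27, -0.012 and 0.18, and optimized replicate 2 deviated most like control replicate 3, so the numbers were not taken as pairs; the block raised lower calls over all genes from 2218 to 2523. Counts of 8 to 12 for Clec4a1 in optimized libraries limit how precisely its fall is known. Its log2 fold change was -4.52 with limma on log2(FPKM + 1), where the pseudocount exceeds its optimized mean of 0.286 FPKM. Under the other settings that tested it, the value was -6.65 to -6.23.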

Other observations

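Of the 9 receptors, Clec4n, Clec4d and Clec5a had their lowest FPKM in replicate 1 of both conditions. Clec4n was at 9.65 FPKM in optimized replicate 1 against 12.3 and 14.8 in the others. Among the optimized libraries, Fcer1g and Tyrobp were also lowest in replicate 1. Fcer1g was at 454 CPM there against 770 and 648, and Tyrobp at 574 against 1268 and 861. Without this library the log2 fold changes of Clec4d and Clec4n were -1.09 and -1.37. The cause was not tested.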
